A study of Mus musculus with 9 samples.

Results

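Interleukins are secreted signals of immune and epithelial cells, and the TNF superfamily comprises membrane-bound or shed ligands and their receptors. The genes described here are those of both groups whose mouse symbol begins with Il, Tnfsf or Tnfrsf followed by a number. Of the 15080 genes measured, 90 carry such a symbol. Tnfrsf11a, Tnfrsf11b, Il7, Il15, Il33, Il4ra and Il13ra1 were left out by the definition of the group, which left 83 genes: 36 ligands and antagonists and 47 receptors, 4 of them decoys that bind a ligand without passing a signal on.

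The cells, thymic epithelial cells (TEC) that form the niche in which T cells mature, were sorted from the thymus of young male wild-type mice. The treated mice had received 1 µg of rAREG, recombinant amphiregulin and so a ligand of the EGF receptor, by injection into the thymus 10 days before collection, and the controls were age-matched mice given the vehicle, PBS. The data held 5 rAREG and 4 vehicle libraries, made by MARS-seq, which counts 3′ ends of mRNA by unique molecular identifiers (UMIs). Whether libraries and mice correspond one to one is not labelled, and p-values therefore describe library-to-library spread, which may be technical. The labels give neither the age in weeks nor the sorting markers.

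Medullary TEC are known to transcribe many genes of other tissues, cytokine genes among them, partly under the control of Aire, and to depend on TNF superfamily receptors for their own growth. Tuft-like TEC are known as a source of IL-25, which acts on innate lymphoid cells that make IL-13 and IL-5. Many interleukin receptors are shared chains: Il2rg encodes the chain common to the receptors for IL-2, IL-4, IL-7, IL-9, IL-15 and IL-21, Il6st the gp130 chain of IL-6 family receptors, and Il10rb a chain of IL-10 family receptors.

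The Il13 promoter is shown because Il13 gave the smallest adjusted p of the 83 genes. The 250 bases before its start (RefSeq, GRCm38.p6, chr11:53634703-53634952, minus strand) are printed with the motif AGATAA, a form recognised by GATA factors, in capitals; it lies 81 to 76 bases before the start.
Il13: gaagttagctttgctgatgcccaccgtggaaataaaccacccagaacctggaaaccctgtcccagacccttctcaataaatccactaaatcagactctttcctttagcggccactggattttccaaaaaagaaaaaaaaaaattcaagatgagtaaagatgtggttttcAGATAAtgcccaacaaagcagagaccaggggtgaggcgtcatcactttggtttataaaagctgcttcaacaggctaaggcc
Of 5 motifs searched on both strands, this was the only one in the Il13 window. AGATAA occurred in 9.99% of 32841 promoter windows of this length and in 16.9% of the 83 windows that belonged to 65 of the interleukin and TNF superfamily genes. The other motifs were the AP-1 motif TGANTCA (6.75% of all windows and 16.9% of those of the group), the GAS motif TTCNNNGAA (7.02% of all windows and 10 of the 83 of the group), the ISRE motif (2.98% and 3.61%) and the kappaB motif (45.8% and 44.6%). Some genes have several windows, and a match is a string of letters, not a site shown to be bound.

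Levels are given as CPM, the UMIs of a gene relative to all UMIs of its library after edgeR's TMM scaling. A UMI stands for 1 captured 3′ end, so levels were not divided by gene length. Libraries held 1523246 to 2159115 UMIs, and a count of 3, used as the floor of detection, corresponded to 1.39 to 1.94 CPM. The summed level of the 83 genes was 2610 to 2740 CPM in the vehicle libraries and 2730 to 2970 CPM in the rAREG libraries. Sorted cells expressed 12 of 12 TEC markers at a summed 25400 to 32800 CPM. Cd74 and H2-Aa, at 10400 and 9180 CPM over all libraries, held most of that sum, while Epcam was at 213 CPM. Of the other cell types, thymocyte markers summed to 78.3 to 181 CPM, dendritic and myeloid markers to 407 to 527 CPM, B cell markers to 27.7 to 51 CPM, natural killer and innate lymphoid markers to 20.9 to 36.8 CPM, fibroblast markers to 225 to 870 CPM and endothelial markers to 40.7 to 85.8 CPM. Transcripts of each list were thus detected; none of the 8 summed levels, the tuft-like one included, differed between the groups after adjustment (two-sided exact permutation tests, adjusted p = 0.19 to 0.87), with unadjusted p of 0.048 for dendritic and myeloid and 0.032 for B cell markers, both higher in rAREG. In bulk samples fewer cells of a type and less RNA per cell cannot be told apart.

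Averaged over all 9 libraries, 16 genes lay at 50 CPM or more, 30 at 10 to 50 CPM and 37 below 10 CPM. For 24 genes no library reached 10 CPM, and 7 genes had a count of 0 in some library. The highest was Il11ra1, the IL-11 receptor chain, followed by the TNF receptors Tnfrsf12a (Fn14, the receptor for TWEAK) and Tnfrsf1a (the main receptor for TNF), Il13, Il15ra and Il2rg. Il11ra1 lies in a set of near-identical genes, so that its count is uncertain. Receptors held most of the upper places, and Il13, Il1rn, Il23a and Tnfsf9 were the ligands or antagonists at 50 CPM or more. At the low end stood T cell ligands such as Il21 and Il2 and the receptor Tnfrsf13b, each near or below the floor.

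**Figure D1:**
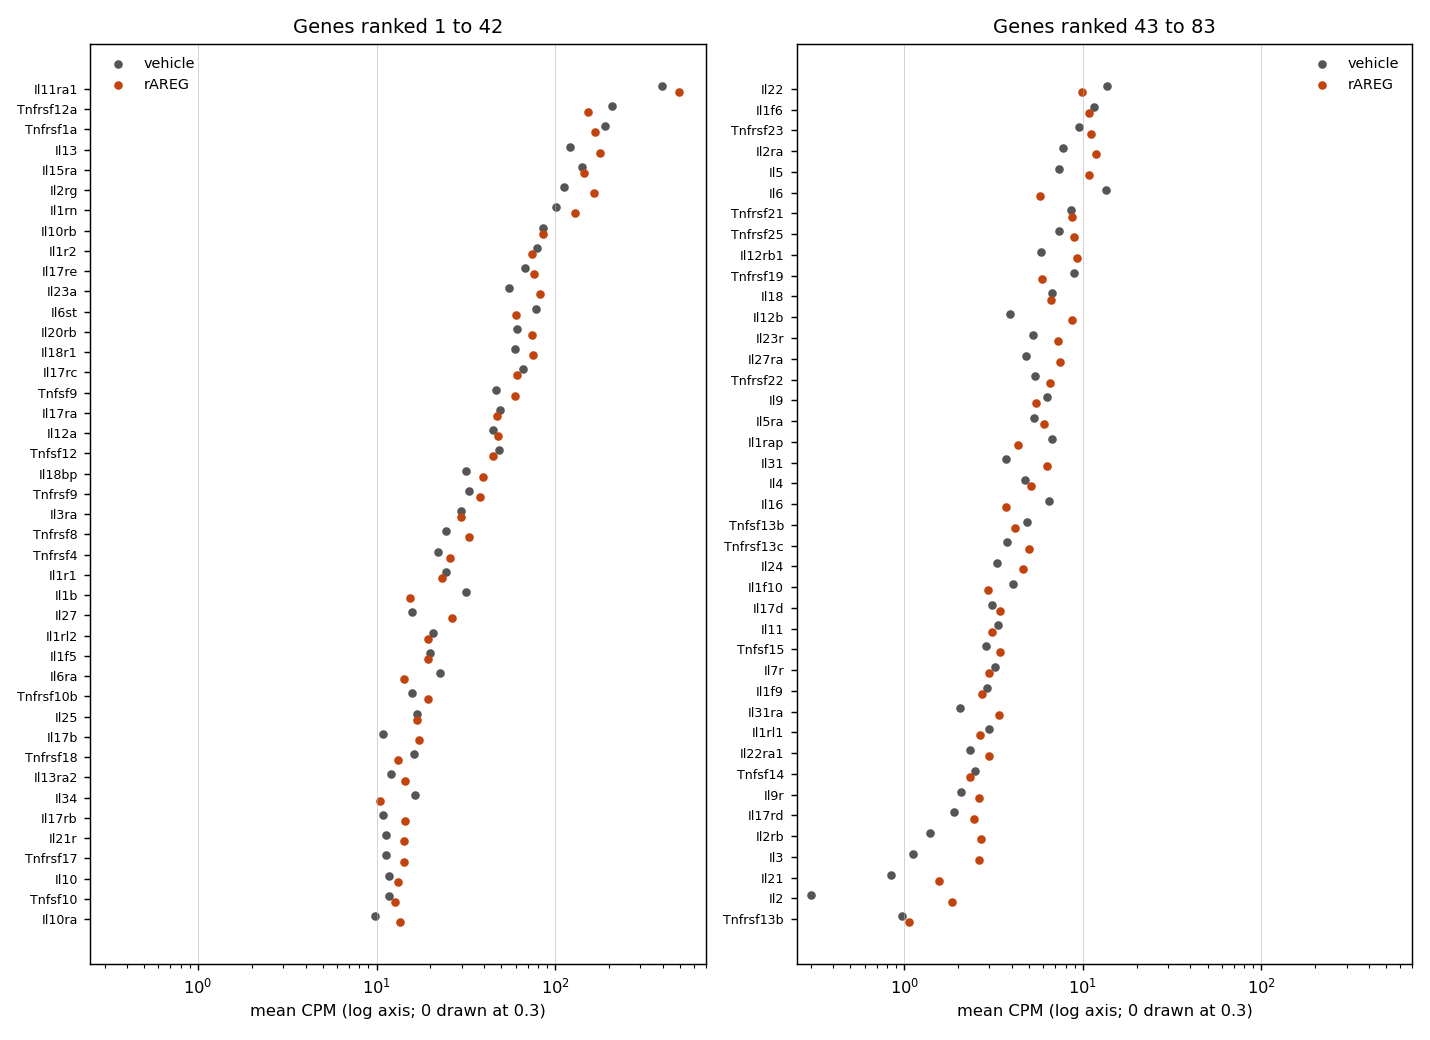
Mean level of each of the 83 genes, ranked by level over both panels, in vehicle (n = 4) and rAREG (n = 5) libraries, on a log axis of CPM. Receptors such as Il11ra1, Tnfrsf12a and Tnfrsf1a lie at the top, and Il2, at 0 CPM in vehicle, is drawn at 0.3.

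A total of 63 of the 83 genes had counts high enough for the fit across all genes, and 20 lay under its filter. In edgeR's quasi-likelihood test with Benjamini-Hochberg adjustment over 11636 genes, 2 of the 63 rose (Il13 and Il27) and 0 fell, beside 1.05% called over all genes tested, 0.559% higher and 0.49% lower. The members' share of calls was 3.17%, on only 2 genes. DESeq2, which gave an adjusted p to 46 of the 83 genes, called 4 of them higher (Il13, Il2rg, Il23a and Il27) and 0 lower, beside 1.05% and 1.02% of 9522 genes. At an unadjusted p under 0.05 there were 15 higher and 6 lower members, 23.8% and 9.52%, beside 6.82% and 6.44% of all genes tested. Of the 63, 38 differences were positive and 25 negative; the median difference was 0.17 on the log2 scale beside −0.0054 over all genes. Levels of the groups did not overlap for 5 members, Il13, Il27, Il23a, Il1rn and Il18bp, which is 7.94% beside 4.92% of all genes. All 5 were higher in rAREG, beside 2.48% of all genes, and 0 were lower, beside 2.44%. The authors' deposited table called 1 of the 83 genes (1.2%) at an adjusted p under 0.05, Il13, beside 168 of all 15080 genes (1.11%).

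**Figure D2:**
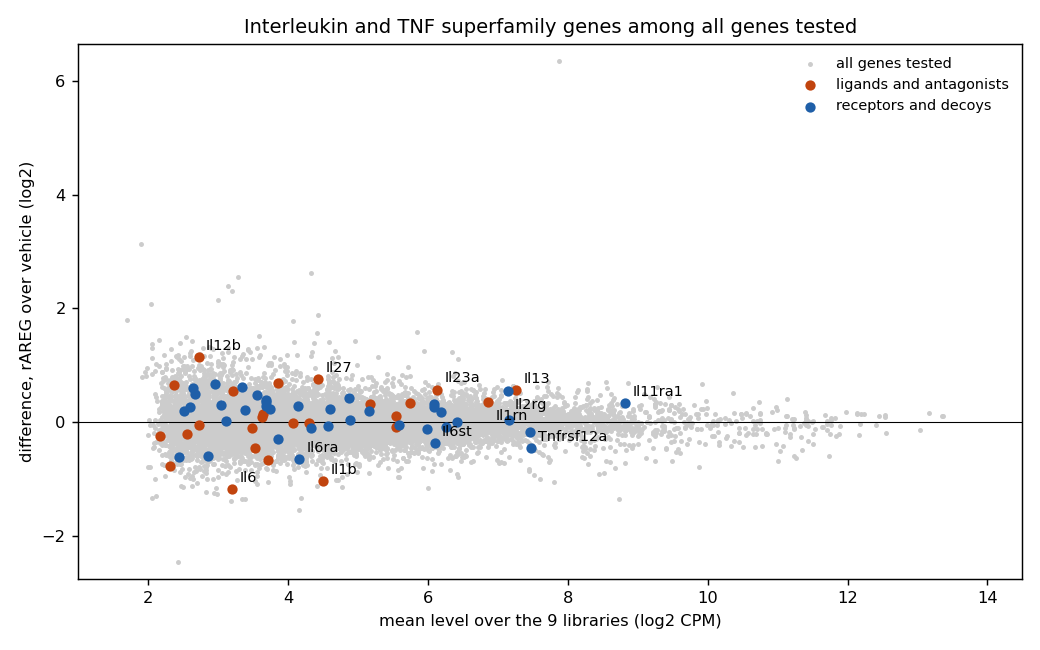
Difference between rAREG and vehicle (log2) against the mean level over the 9 libraries (log2 CPM), for all 11636 genes tested (grey) and the 63 tested interleukin and TNF superfamily genes, ligands and antagonists in red and receptors in blue. Il13 and Il27 lie above 0, while Il1b and Il6 lie below it without passing the test.

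IL-13, a type 2 cytokine known for its action on epithelia, was the clearest difference. Il13 stood at 88.6, 128, 118 and 149 CPM in the vehicle libraries and at 188, 177, 168, 171 and 185 CPM in the rAREG libraries. Every rAREG library exceeded every vehicle library, and the rAREG values lay close together. The difference was 0.56 ± 0.123 (SE) on the log2 scale, from a mean of 121 ± 25.2 CPM (SD, n = 4) to 178 ± 8.47 CPM (SD, n = 5), with an adjusted p of 0.03 (edgeR). The authors' deposited table gave it −0.56 as vehicle over rAREG, with an adjusted p of 0.011. The call, but not the sign of the difference, depended on which library was left out. It held in 3 of 9 such fits, those without vehicle replicate 4, rAREG replicate 3 or rAREG replicate 5. Over all 9 the adjusted p (edgeR) ranged from 0.0067 to 0.13 and the difference from 0.44 to 0.68. With a score of 15 immediate early and stress genes as a covariate, chosen after the data were seen, the difference was 0.67 ± 0.153 with an adjusted p of 0.056. This score was 10.53 ± 0.2 in vehicle and 10.13 ± 0.316 in rAREG (mean log2 CPM ± SD, two-sided exact permutation test, p = 0.1).

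Il13 lies on chromosome 11 at 53631324 to 53634702 (GENCODE, GRCm38), between Il4 and Il5, the other type 2 cytokine genes, in a stretch of 122.1 kb. The neighbours were far lower. Il4 stood at 4.72 ± 3.99 CPM in vehicle and 5.13 ± 2.93 in rAREG and was not tested. Il5, which acts on eosinophils, stood at 7.33 ± 4.38 and 10.8 ± 6.92 CPM, with a difference of 0.54 ± 0.465 (edgeR, adjusted p = 0.67). Il3, a growth factor gene further along the chromosome, stood at 1.12 ± 0.979 and 2.63 ± 3.0 CPM, with 3 of 9 libraries at 0. The decoy receptor Il13ra2 was at 12.1 ± 2.85 and 14.4 ± 6.07 CPM (adjusted p = 0.79). Of the excluded receptor chains of IL-13, Il4ra was at 24.6 ± 2.81 and 18.5 ± 1.87 CPM (adjusted p = 0.28), and all rAREG values lay below all vehicle values, while Il13ra1 was at 59.1 ± 11.8 and 49 ± 10.4 CPM with overlap (0.51). Il3ra and Il5ra, the receptor chains for IL-3 and IL-5, were at 29.5 ± 2.45 and 29.7 ± 10.2 CPM and at 5.3 ± 1.85 and 6.06 ± 2.66 CPM (adjusted p = 0.97 and 0.87).

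The IL-12 family, whose members are pairs of a cytokine chain and a partner, was the other group with a called gene. Il27 encodes the p28 chain of IL-27. It stood at 16.1, 17.6, 13.4 and 15.7 CPM in vehicle and at 22.6, 30.6, 28.8, 27.5 and 22.1 CPM in rAREG. The groups did not overlap, but the counts were small, at 28 to 32 UMIs in the vehicle libraries and 35 to 62 UMIs in the rAREG libraries. The difference was 0.75 ± 0.179 on the log2 scale (edgeR, adjusted p = 0.044; 15.7 ± 1.76 against 26.3 ± 3.78 CPM). It held only without vehicle replicate 4 or rAREG replicate 5 among the 9 fits that left out 1 library, with adjusted p of 0.038 to 0.13, and was 0.33 with the immediate early score. Il27 passed with DESeq2 (adjusted p = 0.049) and not with limma voom (0.055) or with library size as a covariate (0.055). In the authors' deposited table its adjusted p was 0.076.

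**Figure D3:**
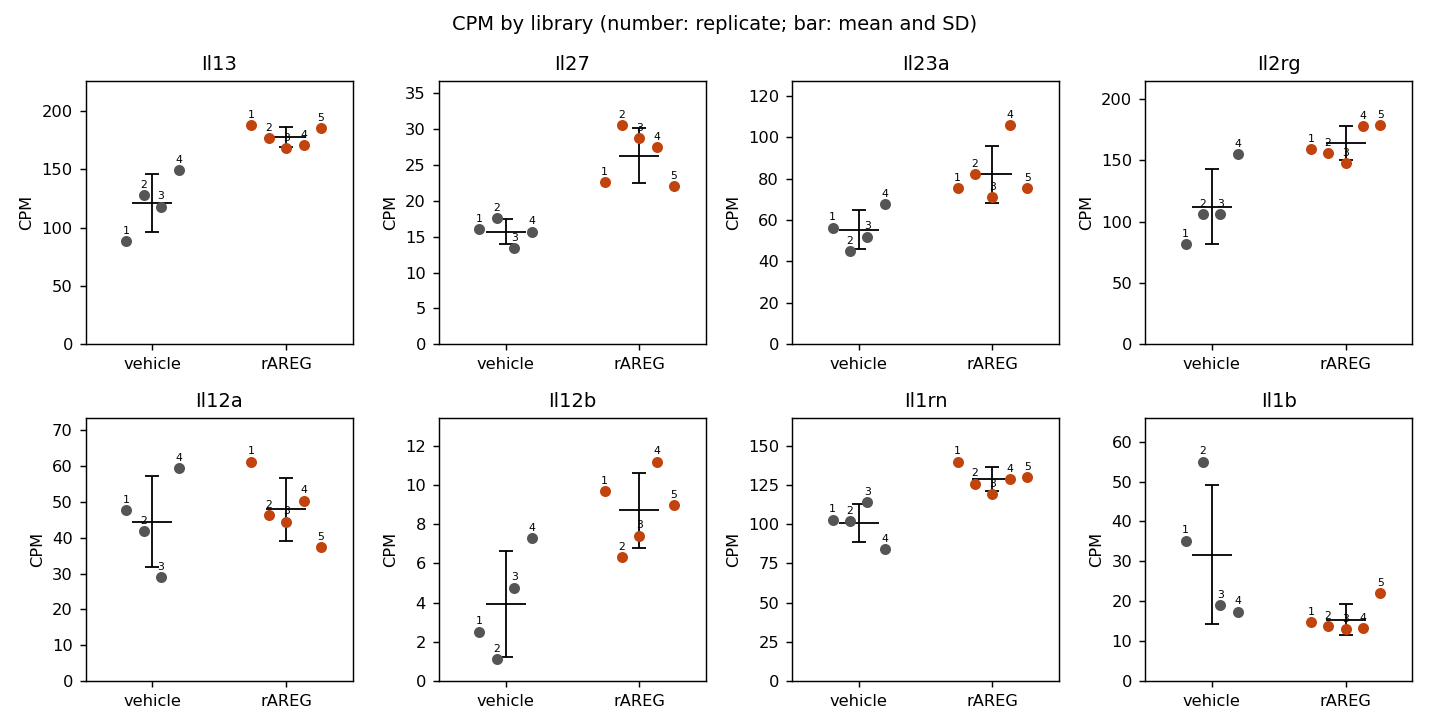
Level of 8 genes in each library (CPM; number, replicate; bars, mean and SD). Every rAREG point of Il13, Il27 and Il23a exceeded every vehicle point, whereas Il2rg and Il12b overlapped only through vehicle replicate 4, and the high Il1b values were those of vehicle replicates 1 and 2.

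Its partner Ebi3, which has no numbered symbol, stood at 41.8, 49, 38.2 and 38.7 CPM in vehicle and at 55.5, 53.8, 61.7, 58 and 62.7 CPM in rAREG. All rAREG libraries were higher, by 0.48 ± 0.126 on the log2 scale (edgeR, adjusted p = 0.07). Il23a, the chain specific to IL-23, showed 56.4, 45.1, 52 and 67.9 CPM in vehicle and 75.5, 82.3, 71, 106 and 75.4 CPM in rAREG. The groups did not overlap, with rAREG replicate 4 the highest, and the difference was 0.57 ± 0.142 (edgeR, adjusted p = 0.054; DESeq2, 0.039). The authors' deposited table gave Il23a an adjusted p of 0.059. Il12b, the chain shared by IL-12 and IL-23, was low at 2.52, 1.1, 4.77 and 7.29 CPM in vehicle and 9.68, 6.33, 7.42, 11.2 and 8.96 CPM in rAREG. Its groups overlapped through vehicle replicate 4 (1.14 ± 0.384; adjusted p = 0.17). Il12a, the p35 chain, was at 44.6 ± 12.6 and 48 ± 8.78 CPM (0.11 ± 0.18; adjusted p = 0.86).

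The 3 receptor chains counted in the IL-12 family were scarce. Il12rb1, the chain shared by the IL-12 and IL-23 receptors, was at 5.8 ± 1.51 CPM in vehicle and 9.33 ± 1.92 in rAREG (adjusted p = 0.32). Il27ra was at 4.81 ± 1.96 and 7.42 ± 2.22 CPM (0.48), and Il23r at 5.23 ± 0.633 and 7.3 ± 3.1 CPM (0.56). All 3 differences were positive, with a median of 0.6. So were all 4 of the ligands, with a median of 0.66 (0.17 over all members), beside 49.2% of all genes tested. Il6st, also a chain of the IL-27 receptor but counted with the IL-6 family, was at 78.3 ± 18.1 and 60.6 ± 8.61 CPM. Its difference was negative (−0.38 ± 0.151, edgeR, adjusted p = 0.27). Markers of dendritic and myeloid cells summed to 407, 425, 427 and 456 CPM in vehicle and to 526, 422, 508, 527 and 497 CPM in rAREG. Most of this sum was Lyz2, at 260 ± 27.3 CPM in vehicle and 314 ± 51.1 CPM in rAREG. Tyrobp (48.6 and 39.7 CPM) and Fcer1g (16.8 and 13.9 CPM) had lower means in rAREG, and the other measured genes of the list had higher means. Of 9 tested genes of the list, 0 rose and 0 fell. At an unadjusted p under 0.05 (edgeR), 2 were higher, Lyz2 and Ccr7, and 0 were lower. Shares over all genes tested were 6.82% and 6.44%. Ccr7 was at 29 ± 7.96 CPM in vehicle and 45 ± 11.5 CPM in rAREG, with overlap (edgeR, adjusted p = 0.15). The part of these cells in the IL-12 family differences was not tested. Aire, a marker of mature medullary TEC that is among the 12 TEC markers, stood at 497, 798, 775 and 844 CPM in vehicle and at 1140, 1340, 899, 1280 and 1140 CPM in rAREG (0.67 ± 0.148; edgeR, adjusted p = 0.037). Its part in the differences of Il13, Il27 and Il23a was not tested.

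**Figure D4:**
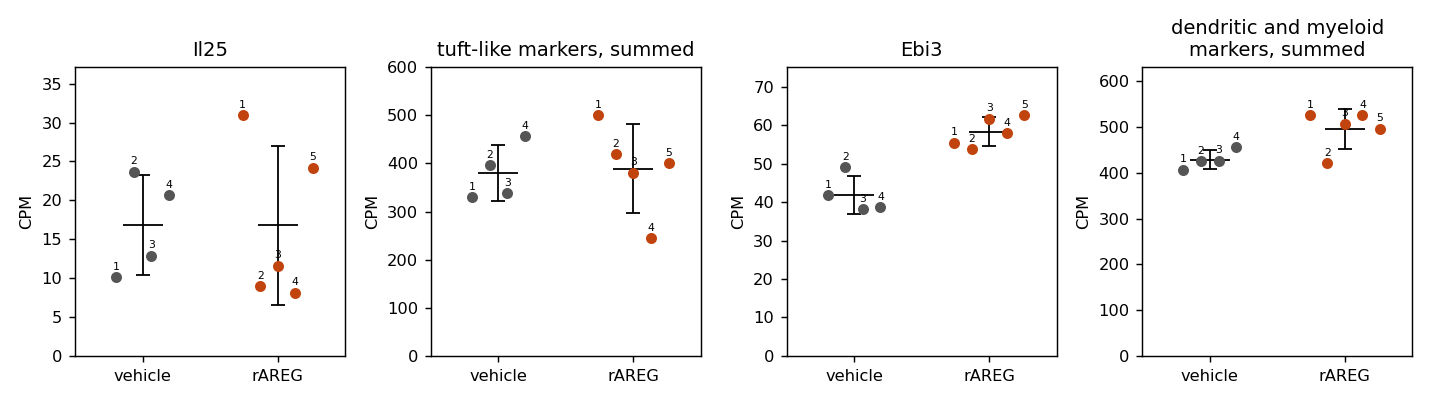
Level in each library (CPM; number, replicate; bars, mean and SD) of Il25, of the summed tuft-like markers, of Ebi3 and of the summed dendritic and myeloid markers. Ebi3 was higher in all 5 rAREG libraries, and Il25 was highest in rAREG replicate 1, where the tuft-like sum was highest too.

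Among the common gamma chain genes, the chain itself had the smallest p. Il2rg stood at 82, 106, 106 and 155 CPM in vehicle and at 159, 156, 148, 178 and 179 CPM in rAREG. Only vehicle replicate 4 reached the range of the rAREG libraries. The difference was 0.55 ± 0.142 on the log2 scale (edgeR, adjusted p = 0.07; DESeq2, 0.036; limma voom, 0.037). For Il2rg the authors' deposited table gave an adjusted p of 0.055. In edgeR it passed without vehicle replicate 4 (0.0039), and in the fits without 1 library the adjusted p ranged up to 0.23. Il15ra, which presents IL-15, was at 141 ± 7.99 and 144 ± 15.1 CPM (adjusted p = 0.94). Il2ra (CD25) was at 7.73 ± 1.66 and 11.9 ± 2.31 CPM (0.3) and Il21r at 11.3 ± 3.04 and 14.2 ± 5.17 CPM (0.7). Il7r, Il9r and Il2rb were near the floor, as was the ligand Il21; Il9 was at 6.31 ± 4.8 and 5.48 ± 5.24 CPM (0.95).

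Il2, the T cell growth factor gene, was the only member with no count in one group. It had 0 UMIs in all 4 vehicle libraries and 18 UMIs in rAREG, at 1.29, 2.11, 3.25, 0.509 and 2.11 CPM. Pooled over the rAREG libraries that is 1.9 CPM (exact 95% Poisson interval 1.13 to 3.01, counting error only). The floor was 0.391 CPM for 3 counts over the pooled vehicle libraries, and the lower end of the interval was 2.89-fold that floor. This ratio leaves out library-to-library spread, so it does not bound the difference between the groups. Over all genes, 20 (0.133%) had no count in one group. Without the low-count filter its adjusted p was 0.099 over 15080 genes (edgeR), and 0.078 in the authors' deposited table.

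In the IL-1 family no gene passed the test; the antagonists Il1rn and Il18bp had higher levels in rAREG, the antagonist Il1f5 did not (19.9 ± 8.1 CPM in vehicle and 19.5 ± 3.91 CPM in rAREG), and the agonist Il1b had a lower mean. Il1rn, the receptor antagonist, stood at 103, 102, 114 and 84.1 CPM in vehicle and at 119 to 140 CPM in the 5 rAREG libraries, with a median of 129 CPM. The groups did not overlap, with vehicle replicate 4 the lowest (0.35 ± 0.107; edgeR, adjusted p = 0.12). Il18bp, which binds IL-18, was at 31.6 ± 2.98 and 39.3 ± 5.15 CPM, again without overlap (0.31 ± 0.145; adjusted p = 0.36). Il1b, the inflammatory agonist, stood at 35.2, 55, 19.1 and 17.4 CPM in vehicle and at 14.8, 13.7, 13, 13.2 and 22.1 CPM in rAREG. The high values were those of vehicle replicates 1 and 2, where fibroblast markers summed to 870 and 764 CPM against 225 to 515 CPM in the other 7 libraries. A single gene, Dcn, made up 734 and 608 CPM of these 2 sums. The part of fibroblasts in the result was not tested. The difference of Il1b was −1.04 ± 0.333 (edgeR, adjusted p = 0.18). Il18r1, the receptor of IL-18, was at 59.8 ± 8.8 and 74.6 ± 7.81 CPM (adjusted p = 0.27). The decoy Il1r2 was at 79.3 ± 10.6 and 74.5 ± 8.75 CPM, far above Il1r1, the signalling receptor, at 24.5 ± 3.4 and 23.2 ± 3.09 CPM (adjusted p = 0.8 and 0.91). The other IL-1 family genes had group means of 2.64 to 20.8 CPM and no call. The 5 clustered receptor genes on chromosome 1 span 426.8 kb and ranged from 2.79 CPM (Il1rl1) to 76.6 CPM (Il1r2) over all libraries.

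The IL-6 family held the highest receptor and both directions. Il11ra1 was at 395 ± 39.9 CPM in vehicle and 496 ± 61.6 CPM in rAREG (0.33 ± 0.112; adjusted p = 0.17). Il6st was at 78.3 ± 18.1 and 60.6 ± 8.61 CPM (−0.38 ± 0.151; adjusted p = 0.27). Il6ra stood at 21.1, 23.7, 23.9 and 21.3 CPM in vehicle and at 13.5, 12.1, 21.8, 7.63 and 15.8 CPM in rAREG. Only rAREG replicate 3 reached the vehicle range (−0.65 ± 0.228; adjusted p = 0.18). Il6 stood at 5.03, 20.4, 19.6 and 8.97 CPM in vehicle and 4.52, 2.11, 15.3, 4.07 and 2.63 CPM in rAREG, a wide spread within both groups (adjusted p = 0.44). Osmr, the oncostatin M receptor chain that pairs with gp130 and has no numbered symbol, was at 124 ± 10.4 and 91.4 ± 19 CPM, lower in every rAREG library (adjusted p = 0.14).

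The IL-17 family includes IL-25, the signal tied to tuft-like cells. Il25 stood at 10.1, 23.7, 12.9 and 20.7 CPM in vehicle and at 31, 8.97, 11.6, 8.14 and 24.2 CPM in rAREG. Both groups spread widely and overlapped (−0.03 ± 0.433; adjusted p = 0.99). Over the 9 libraries Il25 was correlated with the summed level of 7 tuft-like markers (Pearson r = 0.73, exact permutation p = 0.017, adjusted over 2 relations 0.034; Spearman rho = 0.65, p = 0.067). Without the 2 libraries farthest from the median of that sum, rAREG replicates 4 and 1, r was 0.45. For its receptor chain Il17rb, r was 0.66 (exact permutation p = 0.052; rho = 0.61, p = 0.087) and 0.00069 without them. Leaving out the lowest and highest sums narrows the range and tends to lower r by itself. The lower r therefore does not show whether the relations rest on these libraries. Il17re, Il17rc and Il17ra, receptor chains, lay at 47.3 to 76.4 CPM in the group means with adjusted p of 0.61, 0.76 and 0.91. Il17b was at 10.9 ± 4.83 and 17.3 ± 3.73 CPM (0.68 ± 0.267; adjusted p = 0.25).

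In the IL-10 family, Il10rb was at 85 ± 9.86 and 85 ± 7.87 CPM, with no detectable difference (0.00 ± 0.114). Il20rb, a receptor chain for IL-20 and IL-24, was at 61.2 ± 5.09 and 73.8 ± 10.2 CPM (adjusted p = 0.36). Il10, the anti-inflammatory ligand, was at 11.7 ± 4.2 and 13.1 ± 4.1 CPM, and Il22, which acts on epithelia, at 13.6 ± 1.7 and 9.83 ± 5.27 CPM (0.88 and 0.58). The cytokines outside these families were lower without passing: Il34, a ligand of the CSF1 receptor, at 16.4 ± 2.63 and 10.4 ± 5.78 CPM (0.35) and Il16 at 6.45 ± 1.96 and 3.73 ± 1.6 CPM (0.37).

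Of 17 tested genes of the numbered TNF superfamily, 0 passed in edgeR without a block or covariate. Tnfrsf12a stood at 253, 142, 204 and 233 CPM in vehicle and at 177, 107, 125, 156 and 192 CPM in rAREG. The groups overlapped, since vehicle replicate 2 lay among the rAREG values (−0.46 ± 0.194; edgeR, adjusted p = 0.33), and with the immediate early score as a covariate the difference was −0.16 ± 0.186. With the title or the library numbers as a replicate block, edgeR called Tnfrsf12a lower, at an adjusted p down to 0.0036. A check of correlations did not show that these numbers pair the samples. The ligand of Tnfrsf12a, Tnfsf12 (TWEAK), was at 48.2 ± 7.79 and 45 ± 4.81 CPM (edgeR, adjusted p = 0.83). Tnfrsf1a was at 189 ± 20.1 and 166 ± 16.3 CPM (0.48). Tnfsf9 (4-1BB ligand) was at 46.7 ± 6.14 and 59.4 ± 9.68 CPM (0.28), and its receptor Tnfrsf9 at 33.1 ± 12.4 and 38 ± 4.94 CPM (0.71). Tnfrsf8 (CD30) was at 24.6 ± 4.79 and 33.1 ± 6.09 CPM (0.29) and Tnfrsf4 (OX40) at 22.1 ± 2.56 and 25.9 ± 3.99 CPM (0.59). The ligand Tnfsf10 (TRAIL) and its receptor Tnfrsf10b were at 11.8 ± 2.85 and 12.6 ± 3.87 CPM and at 15.7 ± 4.02 and 19.3 ± 4.33 CPM. Tnfrsf22 and Tnfrsf23, decoys in a near-identical pair 51.1 kb wide on chromosome 7, had group means of 5.43 to 11.1 CPM and are uncertain as separate genes. Counted at an unadjusted p under 0.05, 1 TNF ligand and 2 receptors passed, 17.6% of the 17 beside 13.3% of all genes tested, and DESeq2 called 0.

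The 5 lists of related genes without a numbered symbol held 55 tested genes, of which edgeR called 0, an unadjusted p under 0.05 took 7 higher and 3 lower, and DESeq2 called 1. The shares at an unadjusted p under 0.05 were 12.7% and 5.45%, beside 6.82% and 6.44% of all genes tested. Of 10 tested TNF superfamily genes without a number, 7 were positive with a median of 0.37. Cd40, whose ligand is carried by T cells, was at 227 ± 42.7 and 325 ± 53.3 CPM without overlap (0.52 ± 0.135; adjusted p = 0.069), and Ltb, a lymphotoxin chain, at 83.8 ± 23.8 and 116 ± 29.9 CPM (0.41). Of 12 TNF receptor adaptors 8 were positive with a median of 0.11; the most abundant, Tnip1, was at 357 ± 27.2 and 413 ± 21.6 CPM (0.35). Of 14 IL-1 and Toll-like receptor adaptors 6 were positive with a median of −0.02. The most abundant, Irak1, was at 141 ± 20.2 and 147 ± 14 CPM (0.87). Myd88, the shared adaptor, was at 103 ± 10.1 and 74.4 ± 18.6 CPM (0.14). Of 15 cytokine chains without a number 7 were positive with a median of −0.04. The most abundant, Lifr, was at 119 ± 29.7 and 105 ± 15.9 CPM (0.66). Of the 4 JAK kinases that signal from interleukin receptors 2 were positive with a median of 0.03; Jak1 was at 199 ± 34.6 and 192 ± 22.1 CPM (0.91).

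Members differed in how much their libraries spread beyond counting error. Over the 46 at 10 CPM or more, the ratio of the coefficient of variation within groups to that of counting alone had a median of 1.54, and 13 exceeded 2. The widest was Tnfrsf12a at 4.23 (23.1% against 5.46%), then Il11ra1 at 3.52 and Il1b at 3.29 (50.3% against 15.3%). Il25 stood at 2.92 and Il2rg at 2.68, whereas Il1rl2 lay at 0.686. Spread beyond sampling noise was also seen over all genes (chi-square per degree of freedom between libraries at least 2.54), so it was not particular to these genes.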

How the data were processed

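TEC from mouse thymus were profiled by MARS-seq, and groups were taken from the sample titles. Per the submitters' processing notes, bcl2fastq, cutadapt, STAR 2.5.2b, HTSeq, DESeq2 and mm10 were used, with no roles given; the treatment of strand and of multiply matching reads was not given in the sources used here. Raw UMI counts per gene were deposited by the authors and tested here, beside their own log2 fold changes and adjusted p-values, which are quoted only as the authors' deposited values. A further 18 per-sample columns of normalised values were not used. The lowest row maximum among the 15080 genes was 6 counts, so the deposited table had been filtered. Rows without a gene name numbered 0.

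The test on these counts was edgeR's robust quasi-likelihood F test (edgeR 4.0.16 under R 4.3.3; TMM scaling, filterByExpr), with Benjamini-Hochberg adjustment over 11636 genes; 3444 lay under the filter. An adjusted p under 0.05 counts as a call, and "rose" or "fell" is used only of calls. Depth was 1523246 to 2159115 UMIs per library, and intervals and floors cover counting error only. No libraries agreed within sampling noise (chi-square per degree of freedom at least 2.54). The scripts were tested on simulated counts. Alternatives used limma 3.58.1, DESeq2 1.42.0, other scalings, filters, blocks and covariates, and fits without 1 library; DESeq2's missing adjusted p-values stayed missing. A score of 15 immediate early and stress genes as a covariate was chosen after seeing the data. Differences of summed marker levels were tested by two-sided exact permutation (smallest p the design allows, 0.0079). The rule for named genes took all calls, the 12 smallest p, the 15 highest levels, the most abundant ligand and receptor of each family, those without overlap, and partners of these; of the pathway lists, those called and the most abundant. Il1rl1, Il1rl2, Il3, Il4, Il5, Il16, Il21, Il22, Tnfrsf4, Tnfrsf8, Tnfrsf13b, Tnfrsf22, Tnfrsf23, Tnfsf10, Tnfrsf10b and the pathway genes Ltb, Myd88, Osmr and Ebi3 were added after their values were seen. The genes, lists and tests were chosen with earlier results of these data known. Positions come from GENCODE M21 and promoters from RefSeq (both GRCm38); figures were drawn with matplotlib 3.10.9.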

Additional observations from a re-analysis of the deposited data

Results flagged for a closer look

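Within 58 groups of 4 or 5 libraries, 1 library stood apart from the others of its group in 7 cases, where about 1 in 20 groups would by chance. In rAREG replicate 1, Il15ra was at 117 CPM (149 to 152 in the other 4) and Tnfsf9 at 76.1 CPM (51.9 to 58.5). Il1b was at 22.1 CPM in rAREG replicate 5 (13 to 14.8), and Il6 at 15.3 CPM in rAREG replicate 3 (2.11 to 4.52), which lies within the vehicle range. Il10rb was at 99.6 CPM in vehicle replicate 1 (77.9 to 81.6), Il18bp at 27.2 CPM in vehicle replicate 3 (32.7 to 33.6) and Il3ra at 25.8 CPM in vehicle replicate 4 (30.6 to 30.8).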

How the results depend on the processing

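Beside 2 genes called of the group (122 of all genes), total-count scaling gave 4 and DESeq2 4 (197), all higher; log2 library size as a covariate gave 1, and the immediate early score, chosen after seeing the data, 0 (47 of all genes; 14 at an unadjusted p under 0.05). Fits without 1 library gave 0 to 5 (18 to 230 of all genes), with 0 to 4 higher and 0 to 1 lower; vehicle replicates 1, 2 and 3 and rAREG replicates 1, 2 and 4 each left 0 and vehicle replicate 4 left 5 (Il2rg, Il13, Il23a, Il6st and Il27). Deviations of libraries with the same title number correlated at −0.028 to 0.169, and of those with the same library number at −0.04 to 0.076. This check, with the count of best matches given below, did not show that either numbering pairs the samples, and no p-value was computed. With the title numbers as a replicate block 7 were called (4 higher; Tnfrsf12a, Il1b and Il34 the 3 lower; 308 of all genes); with the library numbers as a block 3 were (Il13 and Il2rg higher, Tnfrsf12a the 1 lower), without Il27. Tnfrsf12a had adjusted p of 0.0036 and 0.033 with the blocks and 0.14 to 0.8 in the other alternatives. Of 8 libraries with a partner, 3 and 1 correlated best with their own number. Il13 passed in 14 and Il27 in 10 of 21 fits.

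Signs turned for differences smaller than their standard errors, none of them called in any fit. Il10rb was between 0.00 and 0.03 under RLE (0.00), upper-quartile (0.01), total-count (0.02), voom (0.01), the stricter filter (0.00), the blocks (0.03 and 0.02), the thymocyte score (0.03) and library size (0.01). Il3ra was −0.08 with voom, −0.05 and −0.15 with the blocks and −0.16 with the immediate early score, under which Il15ra was −0.01, Il17rc 0.06, Il9 0.02 and Il25 0.65. Il25 was 0.11 with the library-number block. Without 1 library, Il10rb ranged from −0.06 to 0.09, Il10 from −0.03 to 0.40, Il9 from −0.76 to 0.22, Il25 from −0.34 to 0.19 and Il3ra from −0.10 to 0.20. The summed markers, rAREG minus vehicle in CPM, ranged from −1.47 to 2.93 for natural killer and innate lymphoid cells, −18.3 to 46.1 for tuft-like TEC, −7.09 to 20.3 for thymocytes and −10.7 to 0.538 for endothelium. The cause of these changes was not tested. Genes near the floor, 20 of the 83, were not tested in the main comparison, and depth limits what can be said of them.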
